A study of Mus musculus with 8 samples.

Results

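The genes described here are 35 genes of the lysosome: 16 genes of the vacuolar proton pump (V-ATPase) and 19 genes for lysosomal hydrolases, their activator proteins, lysosomal membrane and lipid transfer proteins and the regulator Tfeb. They were chosen by name from a list, and all 35 have a row among the 20258 named rows of the expression table. Of these, 34 matched by symbol, and Tfeb was found through its RefSeq accession under its older symbol, Tcfeb. All 35 were among the 13615 genes that could be tested. Bone marrow-derived macrophages of C57BL/6 mice were kept for 24 h with LPS plus IFNg (3 libraries), with IL4 (3 libraries) or without stimulus (2 libraries), and their polyadenylated RNA was sequenced from the 3' end. LPS plus IFNg is the usual stimulus for classical (M1) activation and IL4 for alternative (M2) activation. No genotype other than the strain is given, and neither the doses nor the ages of the animals are stated. The labels do not say whether the replicates came from separate cultures or animals, and the p-values therefore reflect the spread among these 8 libraries alone.

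Lysosomes are acidified by the V-ATPase, in which a cytosolic sector (V1) splits ATP and turns a rotor that drives protons through a membrane sector (V0). The low pH activates hydrolases that break down proteins, lipids, glycans and nucleic acids taken up by phagocytosis or autophagy, which in macrophages includes microbes and dead cells. Many of these genes can be switched on together by TFEB and its relatives TFE3 and MITF, which bind a palindrome around CACGTG, and some V0 subunits exist as isoforms that send the pump to different membranes.

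The promoters were searched for that palindrome because it is the sequence that would link the pump and the hydrolases. RefSeq windows of 300 bases (GRCm38.p6, 250 bases before the start of the gene to 50 after it) were available for 29 of the 35 genes. CACGTG, which reads the same on both strands, was found in 9 of the 29 (31.0%), against 8.09% of the windows of 27025 genes. The longer TCACGTGA, which contains CACGTG and is also the same on both strands, was found in 5 of the 29 (17.2%), against 1.12% of all windows. CACGTG was held by 4 of 12 pump genes and by 5 of 17 of the other genes. A match is a description of the letters and not a binding site, and a missing match says only that the letters are not in this window. For 5 of these genes the stretch around the palindrome, which lies wholly before the start, is given with the palindrome in capitals. Atp6v1a lies on the minus strand at chr16:44139372-44139403, Gla on the minus strand at chrX:134601181-134601212, Mcoln1 on the plus strand at chr8:3500461-3500492, Glb1 on the plus strand at chr9:114401018-114401047 and Gaa on the plus strand at chr11:119267811-119267840.
Atp6v1a: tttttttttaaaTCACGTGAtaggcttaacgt
Gla: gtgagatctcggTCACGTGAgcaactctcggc
Mcoln1: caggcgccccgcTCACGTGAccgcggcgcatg
Glb1: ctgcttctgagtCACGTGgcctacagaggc
Gaa: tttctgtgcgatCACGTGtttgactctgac

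None of these 5 genes passed the test in any comparison below. Windows were also at hand for 5 of the 7 genes that did pass at least once (Atp6v0a1, Hexa, Gusb, Cd63 and Npc2), and none of the 5 holds CACGTG. For the pair that passed in both comparisons with LPS plus IFNg, the 150 bases before the start are shown. Atp6v0a1 lies on the plus strand at chr11:101010248-101010397 and is 38.7% G or C, and Hexa lies on the plus strand at chr9:59539390-59539539 and is 57.3% G or C.
Atp6v0a1: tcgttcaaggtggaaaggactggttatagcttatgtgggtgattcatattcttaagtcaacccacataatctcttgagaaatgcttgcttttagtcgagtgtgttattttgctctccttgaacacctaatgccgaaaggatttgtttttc
Hexa: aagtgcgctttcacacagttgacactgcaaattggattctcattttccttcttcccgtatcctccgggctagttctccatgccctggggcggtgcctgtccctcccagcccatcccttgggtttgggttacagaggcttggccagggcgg

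The authors' table gives log2 values after quantile normalisation, so a difference of 1 is a doubling, and differences between groups are log2 changes with their standard error (SE). Libraries of the same group correlated at 0.838 to 0.928 across 7283 genes with a mean of at least 5, and libraries of different groups at 0.619 to 0.841, with genes not being independent replicates. All 7 measured macrophage markers were above 0 in every library, with a summed linear level of 12722 to 13594 in LPS plus IFNg, 9364 to 13991 in IL4 and 19442 to 20614 in unstimulated libraries; against unstimulated, 1 was called higher and 2 lower in LPS plus IFNg, and 0 higher and 3 lower in IL4. In contrast, Cd3e, Ncr1, Hbb-b1 and Fcer1a, which mark lymphocytes, erythroid cells and mast cells, were listed at 0 in all 8. Of 5 fibroblast markers, 4 or 5 were above 0 in each library, limma called none in any comparison (1 at an unadjusted p under 0.05 in LPS plus IFNg and 2 in IL4 against unstimulated, 0 in LPS plus IFNg against IL4), and their summed level was 1205 to 2372 in LPS plus IFNg, 1128 to 1675 in IL4 and 2360 to 3135 in unstimulated libraries. They went both ways, with Col1a1 at 7.35 to 8.89 in LPS plus IFNg, 7.48 to 8.43 in IL4 and 9.49 to 9.57 in unstimulated libraries, and Dcn at 5.64 to 7.27 in LPS plus IFNg, 2.91 to 6.01 in IL4 and 2.71 to 5.68 in unstimulated libraries. The summed linear level of 7 neutrophil and precursor markers was 214 to 310 in LPS plus IFNg, 970 to 1672 in IL4 and 2138 to 2424 in unstimulated libraries, with 5 or 6 of the 7 above 0 in LPS plus IFNg (Mpo at 0 in all 3 libraries) and 7 of 7 in the other groups. Of these 7, limma called 4 lower and 0 higher in both comparisons of LPS plus IFNg, and 0 in IL4 against unstimulated. In LPS plus IFNg, 7 were lower without overlap between libraries against unstimulated and 6 against IL4. The summed level of 7 osteoclast markers was 473 to 614 in LPS plus IFNg, 3287 to 6985 in IL4 and 3738 to 4249 in unstimulated libraries, with Calcr and Oscar at 0 in all libraries. Atp6v0d2, itself a pump gene, made up 60.2% to 73.8%, 79.1% to 91.7% and 91.2% to 92.1% of this sum in the same order of groups. Of the 5 osteoclast markers tested, limma called 4 lower against IL4 and 1 lower against unstimulated in LPS plus IFNg, and 0 higher. In both comparisons 4 of these 5 were lower without overlap between libraries. Mmp9, Tm7sf4 and Ctsk were at 4.96 to 6.28, 0.75 to 4.12 and 4.17 to 5.18 in LPS plus IFNg libraries. They were at 7.11 and 7.22, 5.95 and 6.53, and 5.79 and 5.87 in unstimulated libraries. Another of these markers, Acp5, overlapped between groups. It was at 5.30 to 7.20 in LPS plus IFNg, 5.33 to 6.51 in IL4 and 5.33 to 6.13 in unstimulated libraries. The summed level of 5 dendritic cell markers was 97.2 to 177 in LPS plus IFNg, 1020 to 1438 in IL4 and 366 to 420 in unstimulated libraries, with Ccr7 above 0 in LPS plus IFNg only. This sum follows mainly Itgax, at 6.19 to 7.04 in LPS plus IFNg, 9.96 to 10.47 in IL4 and 8.51 and 8.58 in unstimulated libraries. Each of the others was at 5.38 or less in every library. The part of these marker differences in the results below was not tested. Levels were quantile normalised, so changes are relative to the other genes: scaling to 77 ribosomal protein genes instead shifted the median of all genes by 1.54 against unstimulated and by 1.49 against IL4 in LPS plus IFNg, and scaling to 10 housekeeping genes shifted it by 0.26 and 0.19.

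After LPS plus IFNg, Atp6v0a1 and Hexa fell relative to unstimulated macrophages, and no other member of the 35 passed the test. Atp6v0a1 encodes an isoform of the a subunit, the part of V0 that conducts protons, and Hexa encodes the alpha chain of beta-hexosaminidase, which trims GM2 ganglioside. The 2 of 35 genes called (5.7%; 0 higher, 2 lower) compare with 7.97% of all genes tested and 11.3% of those with a mean of at least 5, so the share of lysosomal genes called was not above the background. By direction, 3.72% of all genes were called higher and 4.25% lower. At an unadjusted p of 0.05, limma had 8 of the 35 lower and 0 higher. In either direction it had 2637 of the 13615 genes tested and 1963 of the 7283 with a mean of at least 5.

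Atp6v0a1 was at 7.58, 7.38 and 7.74 in LPS plus IFNg libraries, against 10.27 and 9.65 in unstimulated libraries. Every LPS plus IFNg library was thus below both unstimulated libraries, with little spread among themselves. The log2 change was -2.39 (SE 0.27, adjusted p = 0.00302), a 5.24-fold lower level. It passed whichever library was left out, and it was still lower after scaling to ribosomal protein genes (-0.85, adjusted p = 0.0369) and to housekeeping genes (-2.13).

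Hexa was at 8.75, 8.61 and 8.31 in LPS plus IFNg libraries, against 10.60 and 10.44 in unstimulated libraries. The groups did not overlap, and the log2 change was -1.96 (SE 0.19, adjusted p = 0.00179), a 3.89-fold lower level. The call held with any library left out and with housekeeping scaling (-1.70), and it ended with ribosomal protein scaling (-0.42, adjusted p = 0.205).

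**Figure D1:**
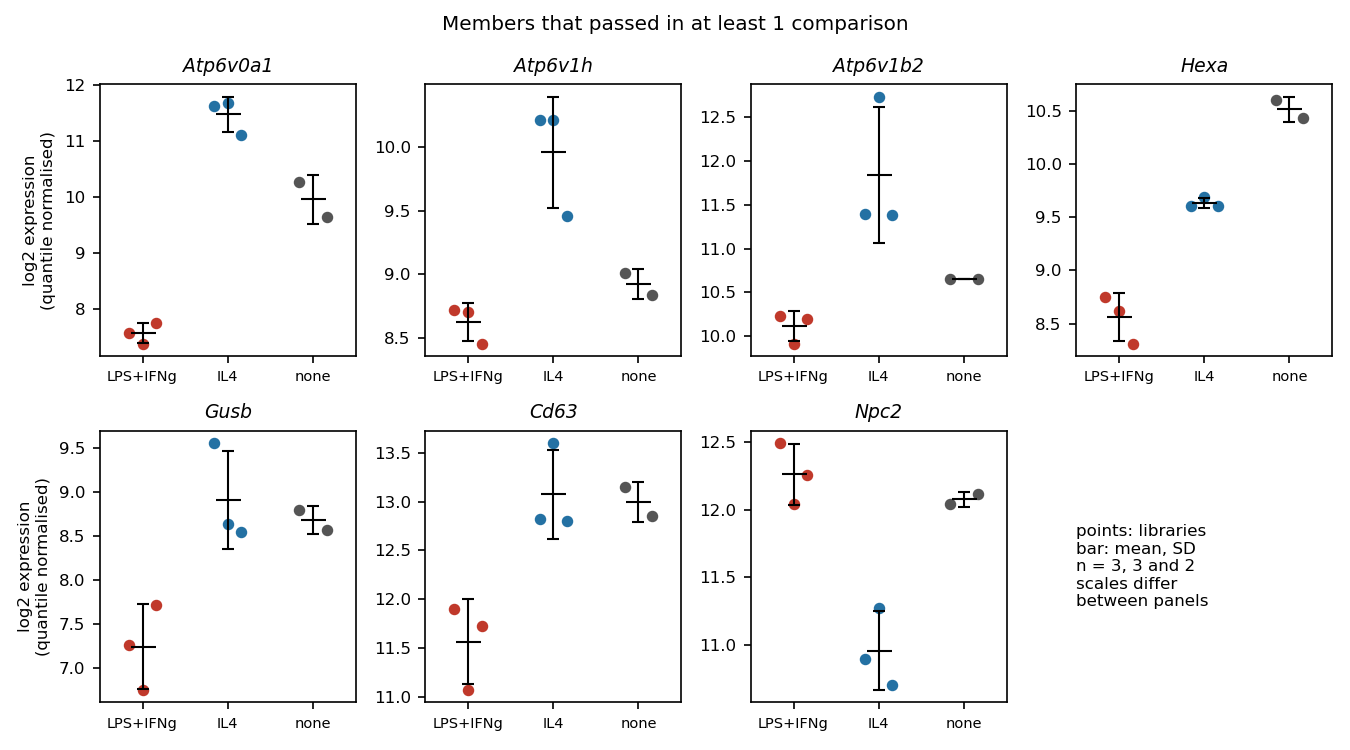
Log2 expression value (vertical axis) in each library for the 7 genes that passed the test in at least 1 comparison, by group from LPS plus IFNg to IL4 to unstimulated; points are libraries and bars are the mean with its SD. Atp6v0a1 sits lowest in LPS plus IFNg (7.38 to 7.74) and highest in IL4 (11.11 to 11.68), Hexa is highest without stimulus, and Npc2 is lowest in IL4.

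The other hydrolases did not pass in either direction. With Hexa counted, 8 of the 10 hydrolases had a negative log2 change and 2 (Gaa and Gla) a positive one. Among the 13615 genes tested, 7035 were negative and 6244 positive. Glb1, the acid beta-galactosidase, was at 7.07, 7.01 and 7.02 in LPS plus IFNg libraries, against 8.40 and 7.92 in unstimulated libraries. Its log2 change was -1.12 (SE 0.28, adjusted p = 0.0583), and it passed only when IL4 replicate 2 was left out of the shared fit (adjusted p = 0.0317). Gusb, the beta-glucuronidase, was at 7.27, 6.75 and 7.72 in LPS plus IFNg libraries, against 8.79 and 8.56 in unstimulated libraries (log2 change -1.43, SE 0.39, adjusted p = 0.0765). Man2b1, the acid alpha-mannosidase, had the largest change among hydrolase and membrane genes that did not pass. It was at 7.26, 7.22 and 7.38 in LPS plus IFNg libraries, against 9.42 and 8.08 in unstimulated libraries, which lay far apart (log2 change -1.46, SE 0.57, adjusted p = 0.214). Gaa, the enzyme that breaks down glycogen in lysosomes, had the largest positive change of the 35, with 6.43, 5.04 and 5.81 in LPS plus IFNg libraries, against 5.15 and 4.06 in unstimulated libraries, which overlapped (log2 change 1.15, SE 0.58, adjusted p = 0.341). Gla, the alpha-galactosidase, also differed upwards without passing (0.47 on the log2 scale, SE 0.33, adjusted p = 0.519).

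Among the membrane proteins, the tetraspanin Cd63 was at 11.90, 11.07 and 11.73 in LPS plus IFNg libraries, against 13.15 and 12.86 in unstimulated libraries. The groups did not overlap, but the log2 change of -1.44 (SE 0.36, adjusted p = 0.0545) missed the threshold, which it passed without IL4 replicate 2 (adjusted p = 0.0377). The structural proteins Lamp1 and Lamp2 and the calcium channel Mcoln1 had log2 changes of -0.20, 0.05 and -0.22, and none passed. Npc1 and Npc2 hand cholesterol out of the lysosome together. The log2 change was -1.13 for Npc1 (SE 0.56, adjusted p = 0.333) and 0.18 for Npc2 (SE 0.24, adjusted p = 0.738). Neither passed, and a difference between the changes of these genes was not tested. Tfeb had a log2 change of 0.18 with a wide interval (95% interval -1.29 to 1.66).

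Outside Atp6v0a1, no pump gene passed. The 15 others had log2 changes of -0.75 to 0.60, 10 of them negative, and the smallest adjusted p was 0.17. Atp6v1f, a rotor subunit, held the largest of these changes, with 8.91, 8.60 and 8.44 in LPS plus IFNg libraries, against 9.27 and 9.53 in unstimulated libraries (log2 change -0.75, SE 0.27, adjusted p = 0.17). The proton-binding ring subunit Atp6v0c and the accessory subunits Atp6ap1 and Atp6ap2 had log2 changes of 0.18, -0.11 and -0.24. These intervals do not exclude moderate shifts: the widest, for Atp6v1b2, ran to -1.49.

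The median log2 change was -0.27 for the 16 pump genes and -0.22 for the 19 hydrolase and membrane genes, beside -0.04 for all genes tested; it was -0.01 for the pump genes with housekeeping scaling, and 1.27 and 1.31 for the 2 sets with ribosomal protein scaling, which moved all genes by the shift given above. In 15 of the 35 genes every LPS plus IFNg library lay below every unstimulated library, and in 1 (Gla) above. Among all genes tested the libraries did not overlap in 20.7% on the lower side and in 16.1% on the higher side, and on the lower side in 27.4% of genes with a mean of at least 5. In bulk RNA, fewer cells of a type and less RNA per cell cannot be told apart.

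**Figure D2:**
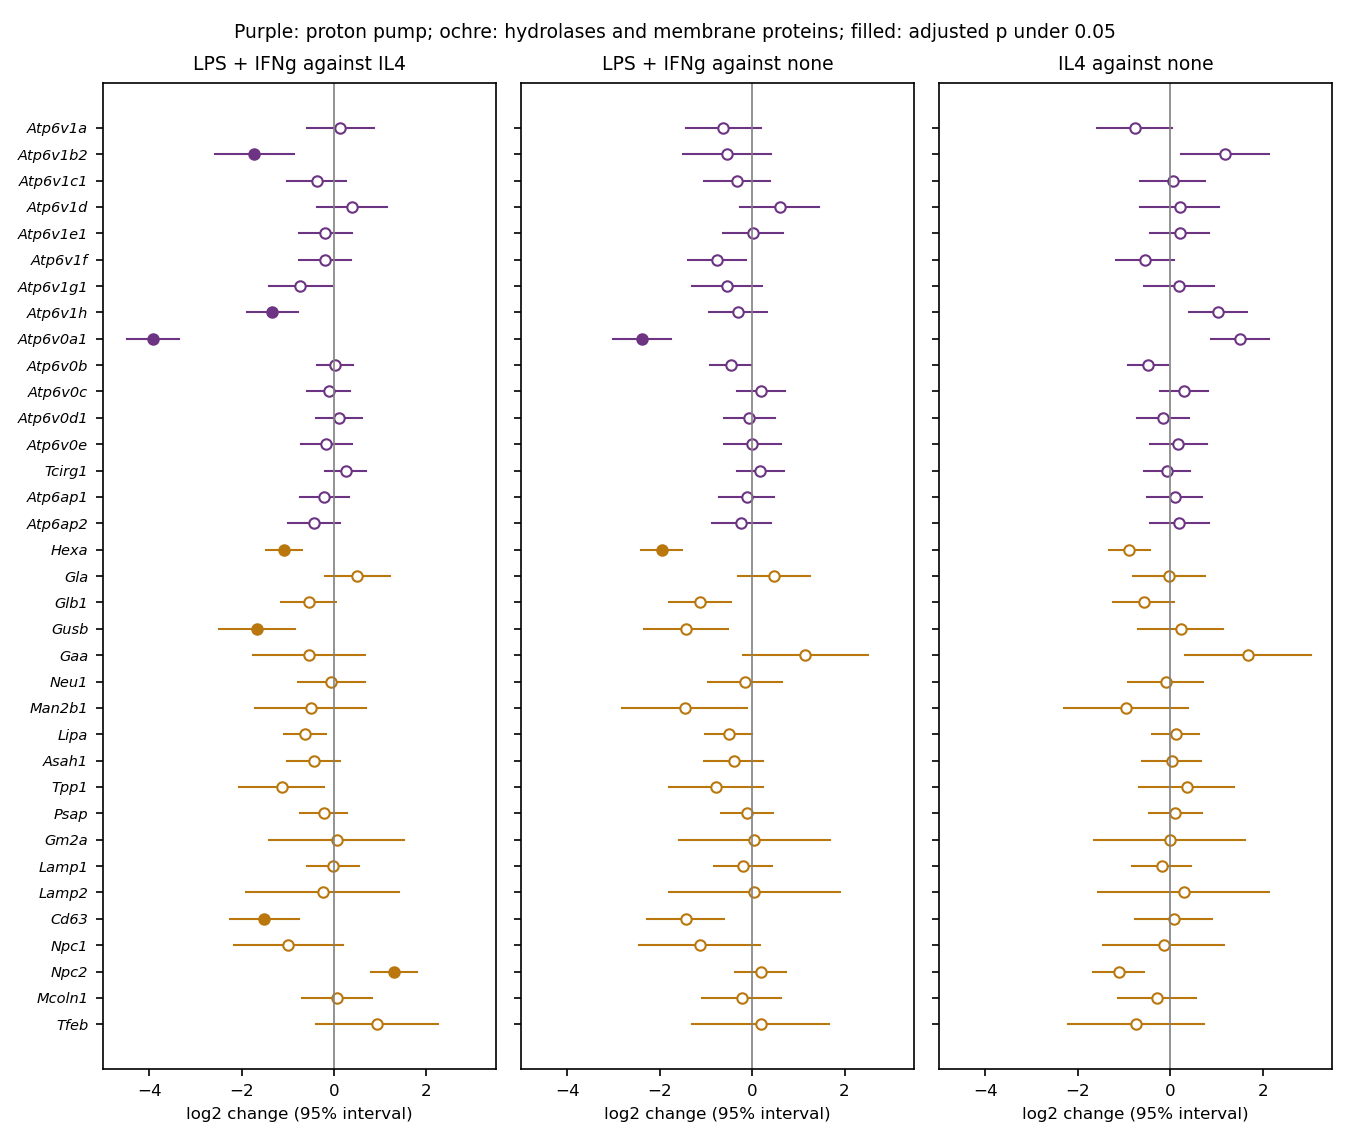
Log2 change (horizontal axis) with its 95% interval for each of the 35 genes in the 3 comparisons; filled points passed the test at an adjusted p of 0.05 over all genes. Atp6v0a1 stands furthest from 0 in both comparisons of LPS plus IFNg (-2.39 and -3.91), while most pump genes have intervals that cross 0; with ribosomal protein scaling most of the other points in these 2 comparisons would lie above 0.

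Set directly against IL4, LPS plus IFNg gave lower levels of 3 pump genes (Atp6v0a1, Atp6v1b2 and Atp6v1h), 2 hydrolases (Hexa and Gusb) and Cd63, and a higher level of Npc2. The 7 of 35 genes called (20.0%; 1 higher, 6 lower) compare with 12.9% of all genes tested and with 18.5% of those with a mean of at least 5, which is near the share among these genes. By direction, 5.91% of all genes were called higher and 6.96% lower. The called genes made up 18.8% of pump genes and 21.1% of hydrolase and membrane genes. The libraries did not overlap in 9 genes on the lower side and 2 on the higher side, where all genes gave 14.8% and 12.4%.

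Atp6v0a1 differed most, with the LPS plus IFNg values given above against 11.63, 11.68 and 11.11 in IL4 libraries. The log2 change was -3.91 (SE 0.24, adjusted p = 0.00018), a 15.0-fold lower level, and it passed under every alternative tried, down to -2.42 with ribosomal protein scaling.

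Atp6v1h encodes the H subunit, which regulates the coupling of V1 to V0. It was at 8.72, 8.70 and 8.46 in LPS plus IFNg libraries, against 10.21, 10.21 and 9.46 in IL4 libraries, and IL4 replicate 3 stood closer to the LPS plus IFNg libraries than its 2 companions. The log2 change was -1.33 (SE 0.24, adjusted p = 0.0112), and it passed with each library left out. With ribosomal protein scaling it turned to 0.16.

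Atp6v1b2, the B subunit that shares the nucleotide-binding sites with Atp6v1a, was at 10.23, 9.92 and 10.19 in LPS plus IFNg libraries, against 11.40, 12.73 and 11.38 in IL4 libraries. IL4 replicate 2 was well above the others, but all 3 IL4 libraries were above all 3 LPS plus IFNg libraries (log2 change -1.72, SE 0.36, adjusted p = 0.0213). The call was lost without either unstimulated library (adjusted p = 0.079 and 0.0785) and without LPS plus IFNg replicate 1, 2 or 3 (0.0733, 0.0986 and 0.0772). The catalytic A subunit Atp6v1a, its partner, was at 11.00, 11.08 and 10.29 in LPS plus IFNg libraries, against 11.05, 10.17 and 10.73 in IL4 libraries, and those groups overlapped (log2 change 0.14, SE 0.31, adjusted p = 0.84).

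Hexa was at the LPS plus IFNg values given above against 9.61, 9.69 and 9.61 in IL4 libraries, which were the tightest of any of the 35 genes in IL4. The log2 change was -1.08 (SE 0.17, adjusted p = 0.00612), it passed with each library left out, and it turned to 0.41 with ribosomal protein scaling. Gusb was at 9.55, 8.64 and 8.54 in IL4 libraries, all above the LPS plus IFNg libraries (log2 change -1.66, SE 0.35, adjusted p = 0.0213). Its call was lost without either unstimulated library (adjusted p = 0.0714 and 0.0711), without IL4 replicate 1 (0.0527) and without LPS plus IFNg replicate 1 or 2 (0.0763 and 0.0796). Both enzymes are exoglycosidases, and the other glycosidases Gla, Glb1, Gaa, Neu1 and Man2b1 had log2 changes of 0.51, -0.55, -0.53, -0.05 and -0.51, none passing.

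Cd63 was at 12.82, 13.60 and 12.80 in IL4 libraries, all above the LPS plus IFNg libraries (log2 change -1.51, SE 0.32, adjusted p = 0.0212). Its call was lost without either unstimulated library (adjusted p = 0.0658 and 0.0661), without IL4 replicate 1 (0.0513) and without LPS plus IFNg replicate 2 or 3 (0.0736 and 0.0634). With ribosomal protein scaling the changes of Atp6v1b2, Gusb and Cd63 shrank to -0.23, -0.17 and -0.02 and none passed.

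Npc2, the soluble carrier that passes cholesterol to Npc1, was at 12.49, 12.04 and 12.25 in LPS plus IFNg libraries, against 10.89, 11.27 and 10.70 in IL4 libraries. All LPS plus IFNg libraries were above all IL4 libraries and close to the 12.04 and 12.11 of unstimulated libraries. The log2 change was 1.30 (SE 0.21, adjusted p = 0.00758), it passed with each library left out, and both scalings left it higher (2.79 with ribosomal protein scaling). Npc1 was at 11.98, 11.34 and 10.45 in LPS plus IFNg libraries, against 11.47, 12.16 and 13.09 in IL4 libraries, which overlapped (log2 change -0.99, SE 0.50, adjusted p = 0.278).

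Of the members that did not pass, Atp6v1g1 had the largest change in the pump and Tpp1 the largest among the others. Atp6v1g1, part of the stalk, was at 9.45, 9.69 and 9.94 in LPS plus IFNg libraries, against 10.68, 10.75 and 9.83 in IL4 libraries (log2 change -0.73, SE 0.29, adjusted p = 0.17). It passed when IL4 replicate 3, its low library, was left out (adjusted p = 0.0403). Tpp1, a tripeptidyl peptidase, was at 11.23, 10.69 and 9.59 in LPS plus IFNg libraries, against 11.84, 11.57 and 11.49 in IL4 libraries, so the LPS plus IFNg libraries spread widely (log2 change -1.13, SE 0.39, adjusted p = 0.115). For Lipa, the acid lipase, the log2 change was -0.62 (SE 0.20, adjusted p = 0.0874), and it passed without IL4 replicate 2 (adjusted p = 0.0343). Gla passed as higher without IL4 replicate 1 (adjusted p = 0.0321).

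The median log2 change was -0.19 for pump genes and -0.43 for hydrolase and membrane genes, beside 0.00 for all genes; the pump median was 0.00 with housekeeping scaling, and both medians turned positive with ribosomal protein scaling (1.30 and 1.06, beside 1.49 for all genes).

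After IL4, no gene of the 35 passed the test against unstimulated macrophages (limma, 0 higher and 0 lower), while 7 had an unadjusted p under 0.05: Atp6v0a1, Atp6v1b2, Atp6v1h and Gaa were higher, and Atp6v0b, Hexa and Npc2 lower. Few genes were called in this comparison at all, with 1.31% of those tested (0.514% higher, 0.793% lower) and 1.81% of those with a mean of at least 5. At an unadjusted p under 0.05, limma had 1648 of the 13615 genes tested and 1225 of the 7283 with a mean of at least 5. IL4 and LPS plus IFNg were set against the same 2 unstimulated libraries, so both sets of changes share those values.

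Atp6v0a1 was at 11.63, 11.68 and 11.11 in IL4 libraries, against 10.27 and 9.65 in unstimulated libraries. The groups did not overlap, and its log2 change of 1.52 (SE 0.27) had an adjusted p of 0.0501. It passed in 4 of the 7 alternatives other than leaving 1 library out (adjusted p = 0.0146 to 0.2), so the call rests on the settings. One of these 7 fitted only the 2 groups compared and so dropped the LPS plus IFNg libraries. With each library left out, the log2 change of Atp6v0a1 was 1.21 to 1.83. It did not pass when an IL4 or LPS plus IFNg library was left out. Atp6v1h was at 10.21, 10.21 and 9.46 in IL4 libraries, against 9.01 and 8.84 in unstimulated libraries (log2 change 1.03, SE 0.27, adjusted p = 0.153), and it passed without IL4 replicate 3 (0.0375). For Atp6v1b2 it was 1.18 (SE 0.41, adjusted p = 0.288).

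Hexa and Npc2 were lower in IL4 without passing. The log2 change of Hexa was -0.88 (SE 0.19, adjusted p = 0.083), with all 3 IL4 libraries below both unstimulated libraries. For Npc2 it was -1.12 (SE 0.24, adjusted p = 0.0842), again without overlap. Gaa was at 6.67, 6.14 and 6.08 in IL4 libraries, against 5.15 and 4.06 in unstimulated libraries (log2 change 1.69, SE 0.58, adjusted p = 0.288). For Man2b1 the log2 change was -0.96 (SE 0.57, adjusted p = 0.558). The libraries did not overlap in 6 genes on the higher side and 4 on the lower side, where all genes gave 11.7% and 14.7%. The median log2 change was 0.18 for pump genes and -0.03 for hydrolase and membrane genes, beside -0.01 for all genes, and the pump median was 0.06 without IL4 replicate 2, 0.09 without IL4 replicate 3 and 0.07 without unstimulated replicate 1.

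**Figure D3:**
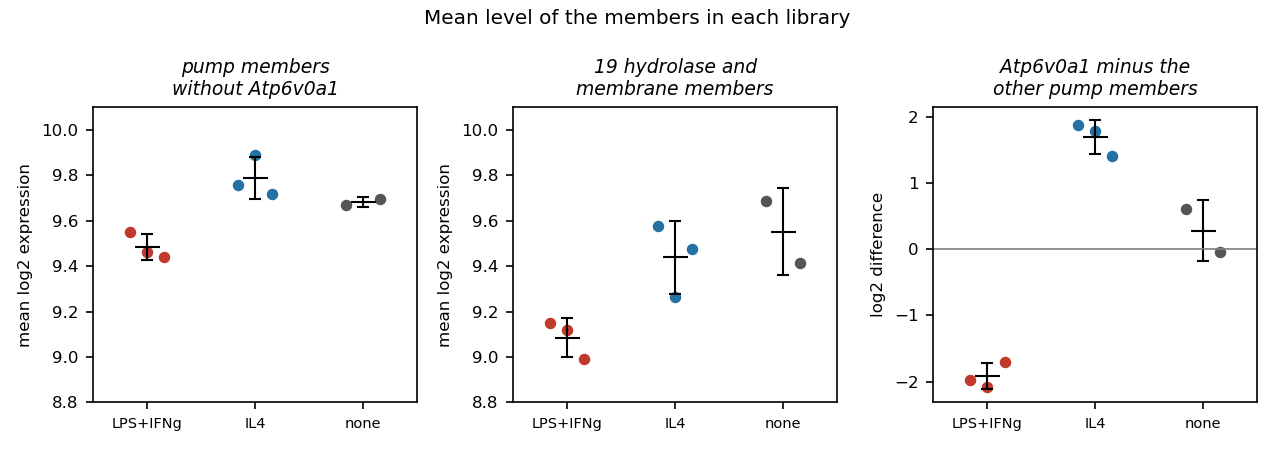
Mean log2 value per library (vertical axis) of the 15 pump genes other than Atp6v0a1, of the 19 hydrolase and membrane genes, and the difference between Atp6v0a1 and the other pump genes, by group from LPS plus IFNg to IL4 to unstimulated; points are libraries and bars are the mean with its SD. The mean of the other pump genes lies between 9.44 and 9.89 over all libraries, while Atp6v0a1 differs from it by -2.08 to -1.70 in LPS plus IFNg and by 1.40 to 1.88 in IL4.

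Within each library, Atp6v0a1 could be set against the rest of the pump, which takes out the scaling of the library. The mean of the 15 other pump genes was 9.48 ± 0.06 in LPS plus IFNg, 9.79 ± 0.09 in IL4 and 9.68 ± 0.02 in unstimulated libraries (SD, n = 3, 3 and 2). The difference of Atp6v0a1 from that mean was -1.92 ± 0.20 in LPS plus IFNg, 1.69 ± 0.25 in IL4 and 0.28 ± 0.46 in unstimulated libraries. The mean of the other 15 was lowest in LPS plus IFNg (9.44 to 9.55 per library), without overlap with IL4 (9.72 to 9.89) or unstimulated libraries (9.67 and 9.70), and it covers Atp6v1b2 and Atp6v1h, which passed as lower against IL4. The difference of Atp6v0a1 from this mean was lower in every LPS plus IFNg library (-2.08 to -1.70) than in any IL4 library (1.40 to 1.88). The unstimulated libraries lay between them (0.60 and -0.05). Only this shift between groups is read, because the difference carries each gene's own capture efficiency. The mean of the 19 hydrolase and membrane genes was 9.09 ± 0.08 in LPS plus IFNg, 9.44 ± 0.16 in IL4 and 9.55 ± 0.19 in unstimulated libraries.

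The a subunit has further isoforms in the table, which were looked at because Atp6v0a1 changed most. Tcirg1, the a3 isoform of osteoclasts and late endosomes, was at 9.67, 9.53 and 9.59 in LPS plus IFNg libraries, 9.28, 9.34 and 9.40 in IL4 libraries and 9.73 and 9.09 in unstimulated libraries. Its log2 change was 0.18 in LPS plus IFNg against unstimulated, with a 95% interval of -0.32 to 0.68, which does not reach the change of Atp6v0a1. Atp6v0a2, the Golgi and endosome isoform and not one of the 35, was at 9.04, 8.63 and 8.60 in LPS plus IFNg libraries, 8.03, 7.67 and 8.93 in IL4 libraries and 7.50 and 7.55 in unstimulated libraries. It lay higher in LPS plus IFNg than without stimulus in every library (log2 change 1.23, SE 0.37, adjusted p = 0.104), and passed without IL4 replicate 3 (0.0276).

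The d subunit, which ties the rotor to the membrane ring, showed a comparable split. Atp6v0d1, the general isoform, was at 7.43, 7.15 and 7.66 in LPS plus IFNg libraries, 7.24, 7.41 and 7.27 in IL4 libraries and 7.53 and 7.41 in unstimulated libraries (log2 change against unstimulated -0.06 in LPS plus IFNg, 95% interval -0.62 to 0.50). Atp6v0d2, the isoform of osteoclasts and macrophages and not one of the 35, was at 8.45, 8.53 and 8.33 in LPS plus IFNg libraries, 12.13, 11.34 and 12.64 in IL4 libraries and 11.74 and 11.93 in unstimulated libraries. It fell in LPS plus IFNg, with log2 changes of -3.40 against unstimulated (SE 0.35, adjusted p = 0.00251) and -3.61 against IL4 (SE 0.31, adjusted p = 0.000631), and its change was 0.21 in IL4 against unstimulated (adjusted p = 0.898). Both drops passed with each library left out.

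Taken as a difference within each library, Atp6v0a1 minus Tcirg1 was -2.03 ± 0.16 in LPS plus IFNg, 2.13 ± 0.36 in IL4 and 0.55 ± 0.01 in unstimulated libraries. Atp6v0d2 minus Atp6v0d1 was 1.02 ± 0.36 in LPS plus IFNg, 4.73 ± 0.73 in IL4 and 4.36 ± 0.23 in unstimulated libraries. These differences carry each gene's own capture efficiency, so their sign within a group is not read, only how they differ between groups. Exact two-sided permutation tests of these differences gave p = 0.1 for LPS plus IFNg against IL4 and p = 0.2 for LPS plus IFNg against unstimulated. Each is the smallest the design allows, and the adjusted p was 0.257 over 9 tests. With so few libraries these tests could not reach the threshold, and they were chosen with earlier results of the same libraries known. They therefore cannot decide whether the differences changed between groups, and nothing is read from them.

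**Figure D4:**
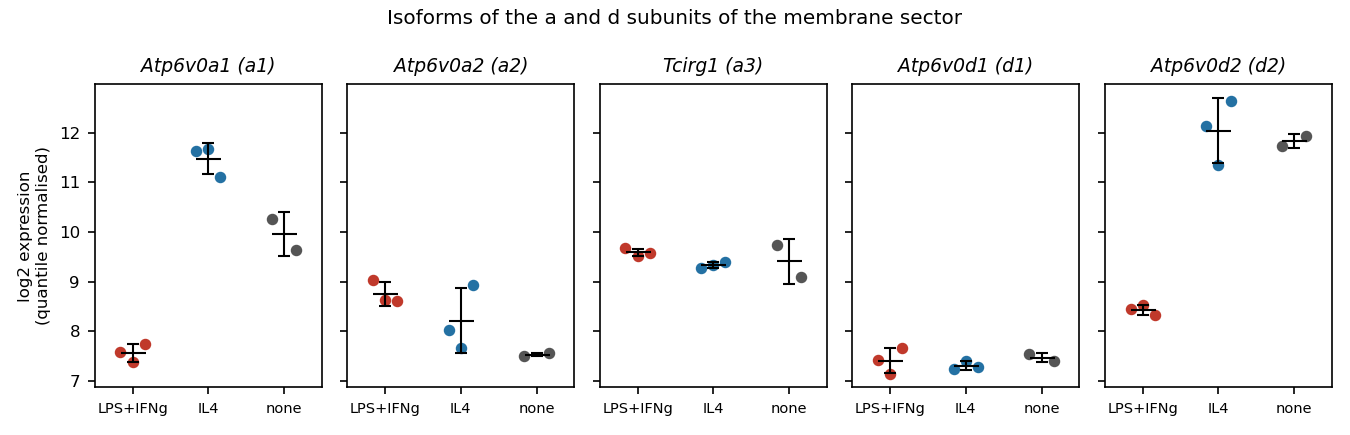
Log2 value in each library (vertical axis) of 3 a subunit isoforms (Atp6v0a1, Atp6v0a2, Tcirg1) and 2 d subunit isoforms (Atp6v0d1, Atp6v0d2), by group from LPS plus IFNg to IL4 to unstimulated; points are libraries and bars are the mean with its SD. Atp6v0a1 and Atp6v0d2 drop in LPS plus IFNg (to 7.38 to 7.74 and 8.33 to 8.53), while Tcirg1 and Atp6v0d1 keep to 9.09 to 9.73 and 7.15 to 7.66 over all libraries.

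The spread between replicates limited several members. The median SD over the 35 genes was 0.27 in LPS plus IFNg, 0.38 in IL4 and 0.19 in unstimulated libraries. Gm2a, the activator that presents GM2 ganglioside to the hexosaminidase, was at 8.42, 10.71 and 8.42 in LPS plus IFNg libraries, so replicate 2 alone lifted the group mean (SD 1.32). Lamp2 had the largest SD in IL4, with 13.72, 11.73 and 14.70. Psap, the precursor of the saposins, and Asah1, the acid ceramidase, varied little between groups, with log2 changes of -0.11 and -0.40 in LPS plus IFNg and of 0.11 and 0.03 in IL4 against unstimulated, none passing. Neu1, the sialidase, had changes of -0.15 and -0.10 in the same comparisons.

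Other genes of the pathway were followed as lists. Their counts are set beside the 7.97% of all genes called in LPS plus IFNg against unstimulated and the 12.9% against IL4 (11.3% and 18.5% of genes with a mean of at least 5), and nothing particular to a list is read from them. Of 9 other V-ATPase genes that could be tested, only Atp6v0d2 passed, lower in both comparisons of LPS plus IFNg and not in IL4 against unstimulated. Of 30 other hydrolases, 1 was higher and 2 lower in LPS plus IFNg against unstimulated, 3 higher and 3 lower against IL4, and none passed in IL4 against unstimulated (limma; 6 at an unadjusted p under 0.05). These were 10.0% of the list against unstimulated and 20.0% against IL4, near the background. Acp2, an acid phosphatase, was the 1 that rose against unstimulated, and Pla2g15 and Galc fell. Against IL4, Pla2g15, Galc and Dnase2a fell, and Acp2, Rnaset2a and Smpdl3a rose. The lysosomal phospholipase Pla2g15 was at 5.53, 5.95 and 6.07 in LPS plus IFNg libraries, against 8.11 and 7.94 in unstimulated libraries (log2 change -2.18, SE 0.31, adjusted p = 0.00713), and this call held with each library left out but not with ribosomal protein scaling (adjusted p = 0.144). Acp2 was at 11.63, 11.78 and 11.35 in LPS plus IFNg libraries, 9.66, 9.13 and 9.79 in IL4 libraries and 10.19 and 10.14 in unstimulated libraries. It was higher in every LPS plus IFNg library than in any other, by 1.42 on the log2 scale against unstimulated (SE 0.24, adjusted p = 0.0134) and by 2.06 against IL4 (SE 0.22, adjusted p = 0.00134). The call against IL4 held with each library left out, and that against unstimulated was lost without unstimulated replicate 1 or 2 (0.0796 and 0.0988) or LPS plus IFNg replicate 1 or 2 (0.0503 and 0.0567).

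Of 30 other lysosomal membrane proteins and transporters, 0 were higher and 4 lower in LPS plus IFNg against unstimulated, 2 higher and 2 lower against IL4, and none passed in IL4 against unstimulated (5 at an unadjusted p under 0.05). These were 13.3% of the list in both comparisons, again near the background. Tpcn1, Slc17a5, Ctns and Laptm5 fell against unstimulated, Tpcn1 and Slc17a5 fell against IL4, and Slc11a1 and Clcn7 rose against IL4. Slc17a5, the sialic acid exporter, changed by -1.96 on the log2 scale in LPS plus IFNg against unstimulated (SE 0.30, adjusted p = 0.00923), lost without unstimulated replicate 1 or 2 (0.0523 and 0.0873). Slc11a1, the phagosomal metal transporter, was at 7.34, 7.89 and 7.66 in LPS plus IFNg libraries, against 4.79, 2.73 and 5.53 in IL4 libraries (log2 change 3.28, SE 0.73, adjusted p = 0.0266). It kept the call without IL4 replicate 2 or 3 and lost it without any of the other 6 libraries (adjusted p = 0.068 to 0.112).

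Among 22 genes of the MiT/TFE factors and their mTORC1 control, 0 passed in LPS plus IFNg against unstimulated (3 at an unadjusted p under 0.05), 1 was higher (Fnip2) and 1 lower (Tfec) against IL4, and 1 was lower (Fnip2) in IL4 against unstimulated. Fnip2, a partner of folliculin upstream of TFEB and TFE3, was at 10.41, 10.43 and 10.20 in LPS plus IFNg libraries, 8.90, 9.30 and 9.02 in IL4 libraries and 10.09 and 10.17 in unstimulated libraries. It was lowest in IL4 and higher in LPS plus IFNg than in IL4 by 1.28 (SE 0.16, adjusted p = 0.00298, held with each library left out). The fall of Fnip2 in IL4 against unstimulated (log2 change -1.05, SE 0.18, adjusted p = 0.048) held without IL4 replicate 2 and was lost without any of the other 7 libraries (0.0703 to 0.106). Tfec, a relative of TFEB found in macrophages, was at 4.81, 5.79 and 5.72 in LPS plus IFNg libraries, against 7.66, 7.14 and 6.87 in IL4 libraries (log2 change -1.78, SE 0.42, adjusted p = 0.0332), and its call was lost without any 1 of the 8 libraries (0.0517 to 0.0989). Of 23 autophagy genes, 1 passed in each comparison of LPS plus IFNg, the adaptor Sqstm1, and none in IL4 against unstimulated (2 at an unadjusted p under 0.05). Sqstm1 was at 11.15, 11.94 and 11.57 in LPS plus IFNg libraries, 9.42, 8.87 and 9.04 in IL4 libraries and 10.05 and 9.71 in unstimulated libraries (log2 change against IL4 2.44, SE 0.25, adjusted p = 0.00131). Its rise against unstimulated, 1.67 (SE 0.28, adjusted p = 0.0132), was lost without LPS plus IFNg replicate 3 (0.0537) and without unstimulated replicate 1 or 2 (0.0633 and 0.122).

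Of 17 genes for sorting and activation of lysosomal enzymes, 0 were higher and 2 lower (Igf2r and Ap1b1) in LPS plus IFNg against unstimulated, 0 higher and 1 lower (Igf2r) against IL4, and none passed in IL4 against unstimulated (2 at an unadjusted p under 0.05). Of 11 cathepsins and related proteases, 2 were higher (Ctsc and Ctsh) and 3 lower (Ctsa, Ctsd and Lgmn) in LPS plus IFNg against unstimulated, 2 higher (Ctsc and Ctsh) and 1 lower (Ctsk) against IL4, and 1 was lower (Ctsh) in IL4 against unstimulated. That is 45.5% and 27.3% of this short list in the 2 comparisons of LPS plus IFNg, beside 7.97% and 12.9% of all genes tested. Ctsc, the dipeptidyl peptidase that activates granule serine proteases, was at 11.43, 11.25 and 11.57 in LPS plus IFNg libraries, 7.40, 7.66 and 7.01 in IL4 libraries and 8.78 and 8.21 in unstimulated libraries. It rose in LPS plus IFNg by 2.92 against unstimulated (SE 0.26, adjusted p = 0.00161), while Hexa fell in the same libraries.

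Several of the calls in these lists were lost when 1 library was left out, as checked for up to 4 called genes of each list. Each such fit also has fewer libraries to estimate the spread, so a loss does not show that the call depended on that library's values. In LPS plus IFNg against unstimulated, Galc lost its call without unstimulated replicate 1 or 2 (adjusted p = 0.0851 and 0.0733), and Tpcn1 without either of them (0.123 and 0.0956) or LPS plus IFNg replicate 2 (0.0613). Lgmn lost it without unstimulated replicate 1 or 2 (0.128 and 0.0736) or LPS plus IFNg replicate 2 or 3 (0.0793 and 0.0677). Ap1b1 kept its call without IL4 replicate 2 or 3 and lost it without any of the other 6 libraries (0.0828 to 0.248), and Igf2r kept it without IL4 replicate 1 and lost it without any of the other 7 (0.0503 to 0.214). Against IL4, Galc and Tpcn1 lost their calls without either unstimulated library, IL4 replicate 1 or LPS plus IFNg replicate 2 (0.0585 to 0.0708 for Galc, also lost without IL4 replicate 3, and 0.0535 to 0.0635 for Tpcn1, also lost without IL4 replicate 2). Slc17a5 lost it without IL4 replicate 2 or 3 (0.0501 and 0.0510) or LPS plus IFNg replicate 1 or 2 (0.0625 and 0.0618). Dnase2a kept it without IL4 replicate 2 and lost it without any of the other 7 libraries (0.0531 to 0.106). Igf2r kept it without IL4 replicate 1 and lost it without any of the other 7 (0.0512 to 0.0686). Clcn7 kept it without IL4 replicate 1 or 3 and Ctsk without IL4 replicate 3 or LPS plus IFNg replicate 1, and both lost it without any of the other 6 (0.0568 to 0.087 and 0.0637 to 0.0975). In IL4 against unstimulated, Ctsh kept its call without IL4 replicate 2 or 3 or unstimulated replicate 1 and lost it without any of the other 5 (0.0539 to 0.0682).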

How the data were processed

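Per the labels' protocols, mRNA was captured on oligo-dT beads, reverse transcribed with barcoded primers, pooled and amplified by PCR as strand-specific 3' end libraries; no molecular identifiers are described. TopHat and the build mm9 are named per the submitters' processing notes; the sources used here do not give the counting, the normalisation steps or the handling of zeros. The authors deposited 1 table of quantile-normalised log2 values with 8 sample columns, so depth per library is unknown and no interval from counts is given. Of 20259 rows, 1 had no symbol and 6643 were constant; 13615 were tested, with 1577 to 3568 of these listed at 0 per library.

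limma 3.58.1 (R 4.3.3) modelled group means over all 8 libraries with an intensity trend (5 residual and 2.31 prior degrees of freedom); tests were two-sided, with Benjamini-Hochberg adjustment over all genes tested and a threshold of 0.05. The fit was tested on simulated data. Alternatives were no trend, only the 2 groups compared, a filter dropping the 0.25 of genes with the lowest means, damped low values (log2 of the linear value plus 1), 2 scalings, a replicate block and each library left out. The 35 genes, the lists and the tests were chosen with earlier results of these data known. Named genes were those that passed and, per comparison, the pump gene and the hydrolase or membrane gene with the largest change among those that did not pass and had a mean of at least 5, plus examples, with up to 4 called genes for each other list. Genes were matched to RefSeq (GRCm38.p6) for names and promoter windows; these coordinates are not on the authors' build.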

Additional observations from a re-analysis of the deposited data

How the results depend on the processing

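With ribosomal protein scaling, LPS plus IFNg called 5905 genes against unstimulated and 7053 against IL4, of the 35 genes 21 and 23 higher and 1 lower in each (Atp6v0a1), with medians of 1.27 (pump) and 1.31 (hydrolase and membrane) against unstimulated and 1.30 and 1.06 against IL4. The log2 change turned positive in 22 of the 24 genes of the 35 that had a negative one against unstimulated and in 21 of 25 against IL4. Among named genes, called changes that turned sign were Igf2r at 0.38 against unstimulated, and Atp6v1h at 0.16, Hexa at 0.41, Pla2g15 at 0.021, Slc17a5 at 0.11 and Igf2r at 0.35 against IL4. Calls were 46.6% higher against unstimulated and 45.9% against IL4, beside 97.0% and 96.0% with ribosomal and 61.2% and 56.8% with housekeeping scaling; the 77 ribosomal protein genes had 57 and 64 members called lower, and the cause was not tested. With housekeeping scaling the pump medians were -0.0058 against unstimulated and 0.0021 against IL4. In IL4 against unstimulated, 1 of the 35 genes was higher (Atp6v0a1) with either scaling, with damped values and with the lowest 0.25 of genes left out, which gave 4 lower in LPS plus IFNg against unstimulated, with fewer genes tested. Fitting only the 2 groups compared, with fewer samples, called 70 genes in IL4 against unstimulated and 3 of the 35 genes lower in LPS plus IFNg against IL4.

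Whether the replicate numbers pair the libraries cannot be decided from these values. Deviations from the group mean correlated at -0.0791 to 0.0718 for same-numbered libraries (7 pairs) and at -0.0718 to 0.0814 for other pairs (14 pairs), over 7283 genes. Not every library correlated best with its own number. In a group of 2 libraries the deviations mirror each other, so the values of same-numbered and other pairs are tied. With the replicate block, 8 genes were called in IL4 against unstimulated and 511 in LPS plus IFNg against unstimulated, where the pump median was -0.17; Atp6v1b2 and Cd63 missed the threshold against IL4. Leaving out each library gave 105 to 412 genes called in IL4 against unstimulated (most without unstimulated replicate 1, fewest without LPS plus IFNg replicate 3), 701 to 1112 in LPS plus IFNg against unstimulated (fewest without LPS plus IFNg replicate 2) and 1194 to 1534 against IL4. Of the 35 genes it gave 0 to 1 higher in IL4 against unstimulated, 2 to 4 lower in LPS plus IFNg against unstimulated (4 without IL4 replicate 2), and 1 to 2 higher and 3 to 7 lower against IL4 (3 without unstimulated replicate 1 or 2 or LPS plus IFNg replicate 2). The pump medians ranged over 0.0566 to 0.1994, -0.3097 to -0.1344 and -0.283 to -0.0883 in the same order of comparisons. With 2 unstimulated libraries and no counts, small changes were not detectable.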
